A study of Mus musculus with 8 samples.

Results

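Interferon-stimulated genes were followed in cells of a mouse tumor that had been split by their magnetic iron content. The members are 43 genes of the type I and type II interferon response, listed by name and not by their values here, out of 35975 annotated genes to which the transcripts of the deposited tables could be assigned. All 43 had enough counts to be tested, among 13343 tested genes in all. They comprise 4 transcription factors, 5 nucleic acid sensors, 4 IFIT genes, 6 OAS genes, 2 MX genes, 2 genes of the ISG15 system, 3 membrane restriction factors, 4 guanylate-binding proteins (GBP), 4 immunity-related GTPases (IRG) and 9 other effectors. The 4 GBP and 4 IRG genes form the 8 GBP-type genes, and the IFIT and OAS genes form the 10 IFIT/OAS-type genes.

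The tumors were syngeneic fibrosarcomas placed under the skin of wild-type C57BL/6 mice, with no age given in the labels. After enzymatic digestion and lysis of red cells, the cell suspension went through magnetic columns, where cells held back by the magnet were eluted (iron positive) and the others ran through (iron negative). Bulk RNA libraries were made from total RNA, 4 per fraction, and the tags 3L, 3R, 4R and 5L each name 1 library of either fraction. The series title calls the cells macrophages, whereas the labels mention no antibody sort. Whether the tags stand for separate animals is not stated, and the p-values measure only the spread between these samples. Where values are given per library, 4 numbers in a row belong to tags 3L, 3R, 4R and 5L, in that order.

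Type I interferons (the interferon alpha and beta proteins) signal through the receptor chains IFNAR1 and IFNAR2 to a complex that holds STAT2 and IRF9 and binds the interferon-stimulated response element (ISRE). Type II interferon (interferon gamma) signals through IFNGR1 and IFNGR2 to gamma-activated sites (GAS) in the promoters of its targets and induces IRF1. IFIT and OAS genes are classical targets of type I interferon, while GBP and IRG genes are strongly induced by interferon gamma in mouse macrophages, though both classes respond in part to both signals.

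The promoters of the members that passed the test between fractions, and that of Ifit1 as an IFIT/OAS-type gene for comparison, show which of these elements lie close to each start. Each sequence runs 5′ to 3′ from 170 bases before the transcription start to 30 bases after it, 200 bases in all, from RefSeq promoters on build GRCm38.p6. Capitals mark every match to the ISRE core (GAAA, then NN, then GAAA, where N is any base) or its reverse complement (TTTC, then NN, then TTTC), and every match to the GAS core TTCNNNGAA, which is its own reverse complement. A run of capitals can hold matches that overlap.
Gbp2 (chr3:142620493-142620692, plus strand): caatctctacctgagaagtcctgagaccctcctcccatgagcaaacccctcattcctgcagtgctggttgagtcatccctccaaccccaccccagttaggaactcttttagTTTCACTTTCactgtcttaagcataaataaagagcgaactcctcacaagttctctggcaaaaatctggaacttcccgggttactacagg
Gbp3 (chr3:142559874-142560073, plus strand): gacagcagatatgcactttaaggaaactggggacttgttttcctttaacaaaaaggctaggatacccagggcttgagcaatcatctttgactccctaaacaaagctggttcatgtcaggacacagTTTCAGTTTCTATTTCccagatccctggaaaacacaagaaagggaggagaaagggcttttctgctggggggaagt
Gbp5 (chr3:142496764-142496963, plus strand): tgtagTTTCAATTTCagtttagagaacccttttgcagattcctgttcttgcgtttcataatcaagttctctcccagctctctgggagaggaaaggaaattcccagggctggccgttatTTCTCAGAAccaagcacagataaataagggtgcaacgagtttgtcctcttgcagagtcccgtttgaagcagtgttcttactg
Gbp7 (chr3:142530166-142530365, plus strand): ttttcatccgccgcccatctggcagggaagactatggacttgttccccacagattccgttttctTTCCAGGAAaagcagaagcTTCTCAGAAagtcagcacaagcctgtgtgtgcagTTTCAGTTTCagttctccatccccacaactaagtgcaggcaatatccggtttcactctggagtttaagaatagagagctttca
Ifitm3 (chr7:141010715-141010914, minus strand): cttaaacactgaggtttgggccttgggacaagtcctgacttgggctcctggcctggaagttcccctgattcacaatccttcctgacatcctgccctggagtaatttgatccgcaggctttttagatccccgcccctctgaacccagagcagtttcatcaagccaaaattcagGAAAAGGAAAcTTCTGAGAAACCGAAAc
Ifit1 (chr19:34640719-34640918, plus strand): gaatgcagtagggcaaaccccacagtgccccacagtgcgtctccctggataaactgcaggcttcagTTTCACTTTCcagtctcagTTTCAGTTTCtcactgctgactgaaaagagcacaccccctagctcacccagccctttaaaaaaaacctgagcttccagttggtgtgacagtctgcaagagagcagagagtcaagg

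In Gbp2 the ISRE core began 59 bases upstream of the start, and in Gbp7 it began 53 bases upstream. Gbp3 had a pair of overlapping ISRE cores that began 45 and 39 bases upstream, in 1 of its 2 promoters in the table. The ISRE core of Gbp5 lay further away, at 165 bases upstream, with a GAS core at 52 bases. Gbp7 carried GAS cores at 106 and 87 bases upstream. Ifit1 had ISRE cores at 104 and 85 bases upstream, and in Ifitm3 the matches lay just after the start. Of the 43 members, 34 matched a promoter in the table, and 23 of them (67.6%) held an ISRE core within 250 bases before to 50 bases after a start, against 4.0% of 27025 genes with a promoter. A GAS core was present in 12 of the 34 (35.3%), against 9.6% of those genes. Among matched GBP-type genes 7 of 7 held an ISRE core and 4 held a GAS core, and among matched IFIT/OAS-type genes 6 of 9 held an ISRE core and 2 held a GAS core. These matches are letters in the reference and say nothing of binding in these cells.

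Library totals ran from 19.04 to 24.31 M estimated counts. Levels are given as counts per 1 M counts (CPM), scaled between libraries with TMM factors (trimmed mean of M values). Of 12 macrophage markers, none was called higher and 5 were called lower in the iron positive fraction, with a median log2 fold change of -0.31. They did not move together, ranging from -0.61 (Csf1r) to 0.11 (Lyz2). Their summed level was 21020 to 27840 CPM in iron positive and 27860 to 30480 CPM in iron negative libraries. All 9 endothelial markers were higher in the iron positive fraction, and their summed level was 204 (3L), 1391 (3R), 859 (4R) and 243 (5L) CPM there, against 68.4 to 107 CPM in iron negative libraries. Fibroblast markers (5 of 7 tested higher) summed to 480.2 to 4595 CPM in iron positive and 116 to 373 CPM in iron negative libraries, with the highest values again in 3R and 4R. Whether these transcripts came from fibroblasts or from cells of the fibrosarcoma was not tested. Pericyte markers (5 of 6 tested higher) summed to 47.05 to 390.9 CPM in iron positive and 14.2 to 22.1 CPM in iron negative libraries. Skeletal muscle markers (4 of 4 tested higher) summed to 15.06 to 46.02 CPM and 1.84 to 2.92 CPM in that order. Of the neutrophil markers 2 of 4 tested were higher, and of the monocyte markers 1 of 5 was lower. T and NK cell markers summed to 18.97 to 25.1 CPM in iron positive and 30.7 to 45.1 CPM in iron negative libraries, 1 of 4 tested being lower. In bulk RNA, fewer cells of a type and less RNA per cell cannot be told apart.

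Between the fractions, 5 of the 43 interferon-stimulated genes differed. Ifitm3, which blocks the entry of viruses through endosomes, rose in the iron positive fraction, and the 4 guanylate-binding proteins Gbp2, Gbp3, Gbp5 and Gbp7 fell. Measured against macrophage marker genes, though, these 4 lay between -0.09 and 0.05 on the log2 scale, where the median of all genes was 0.35. Ifitm3 lay at 0.97 against those markers. The other 38 members were not called without pairing, including all IFIT, OAS, MX and IRG genes, but pairing the libraries by tag called 8 of these 38 lower, among them Ifit2, Oas1a, Oas1g and Oasl1. A member counts as called, unless another fit is named, when its adjusted p lies under 0.05 in edgeR's quasi-likelihood test with Benjamini-Hochberg adjustment over all 13343 genes and no pairing. By that rule 1 member was higher, where 8.49% of all tested genes were higher, and 4 were lower (4 of 43), where 5.21% of all tested genes were lower. At an unadjusted p under 0.05 there were 11 of 43 members, where 31.1% of all tested genes lay under it. The median log2 fold change of the members, iron positive minus iron negative, was -0.12, against -0.01 over all tested genes, and 32 members had a negative value and 11 a positive one, where 50.9% of all tested genes were negative.

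Guanylate-binding proteins are large GTPases that assemble on the membranes around intracellular pathogens. Gbp2 stood at 67.2, 79.3, 86.98 and 76.03 CPM in the iron positive libraries, against 97.5, 91.2, 98.4 and 97.7 CPM in the iron negative libraries. Gbp2 averaged 77.4 ± 8.199 CPM in the iron positive fraction and 96.2 ± 3.33 CPM in the iron negative fraction (SD, n = 4 each), a log2 fold change of -0.31 ± 0.08 (SE, adjusted p = 0.0338). Every iron positive library lay below every iron negative one. Gbp3 stood at 55.3, 68.8, 60.2 and 77 CPM in the iron positive libraries, against 89.5, 82.5, 82.1 and 88.2 CPM in the iron negative libraries, with a log2 fold change of -0.39 ± 0.10 (adjusted p = 0.0373). Gbp5 had 31.1, 37.9, 38.9 and 34.5 CPM in the iron positive libraries, against 41.2, 48.4, 48.8 and 46.4 CPM in the iron negative libraries, with a fold change of -0.38 ± 0.09 (adjusted p = 0.0277). Gbp7 reached 85.9, 102, 90.9 and 109 CPM in the iron positive libraries, against 124, 129, 142 and 132 CPM in the iron negative libraries, and its log2 fold change of -0.44 ± 0.08 was the largest fall among the members (adjusted p = 0.0185). In all 4 genes the fractions did not overlap, the iron positive libraries being lower, a pattern that 10.3% of all tested genes showed. Tag 3L was the lowest iron positive library for all 4. Gbp7 shared 14.7% of its 31-base words with other annotated genes, mostly the overlapping pseudogene Gm43802, so part of its reads could be split.

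These 4 calls lie close to the threshold. Without 1 iron negative library, whichever it was, none of the 4 was called in edgeR, with adjusted p of 0.0605 to 0.0856 for Gbp2, 0.0744 to 0.0939 for Gbp3, 0.0619 to 0.0787 for Gbp5 and 0.0526 to 0.06299 for Gbp7, and without 3L, 3R or 4R no gene of the whole table was called, against 3556 to 3704 genes at an unadjusted p under 0.05. Gbp3 was lost without iron positive 3L (0.0503), Gbp3 (0.101) and Gbp7 (0.0502) without iron positive 4R, and Gbp2 (0.0505) without iron positive 5L.

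Scaling the libraries to the 12 macrophage markers moved the median log2 fold change of all genes to 0.35. On that scale Gbp2, Gbp3, Gbp5 and Gbp7 had log2 fold changes of 0.05, -0.04, -0.02 and -0.09, none called. Relative to the shifted median of all genes they stood at -0.30, -0.38, -0.36 and -0.44. On the TMM scale the macrophage markers had a median log2 fold change of -0.31 but did not move together. Csf1r stood at -0.61, Aif1 at -0.49, Cd68 at -0.10, Mertk at 0.05 and Lyz2 at 0.11. A value against these markers thus depends on which of them are used. The part of macrophage content in the fall of the 4 GBP genes was not tested.

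Immunity-related GTPases, which act with the GBPs on pathogen vacuoles, were not called in either direction. Irgm1 stood at 43.5, 50.1, 62.1 and 53.9 CPM in the iron positive libraries, against 42.1, 46.4, 47.1 and 53.4 CPM in the iron negative libraries. Irgm1 was the higher in the iron positive library of each tag, yet the fractions overlapped and the log2 fold change of 0.15 ± 0.12 was not called (adjusted p = 0.415). Iigp1 measured 36.5, 54.1, 61.1 and 52.9 CPM in the iron positive libraries, against 41.1, 49.7, 47.6 and 52.3 CPM in the iron negative libraries, with a fold change of 0.10 ± 0.15 (adjusted p = 0.685). Irgm2 had 0.09 ± 0.12 (adjusted p = 0.655) and Igtp had -0.19 ± 0.09 (adjusted p = 0.1797) on the same log2 scale. Igtp and Irgm2 overlap on the same strand and shared 15.9% and 10.7% of their 31-base words with other genes, so their counts are less certain. The median log2 fold change was 0.10 for the IRG genes and -0.38 for the GBP genes. Against macrophage markers these medians were 0.46 and -0.03, where that of all genes was 0.35. On that scale 1 IRG gene was called, Irgm1, higher at 0.51 (edgeR adjusted p = 0.0314), where 44.4% of all tested genes were higher.

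**Figure D1:**
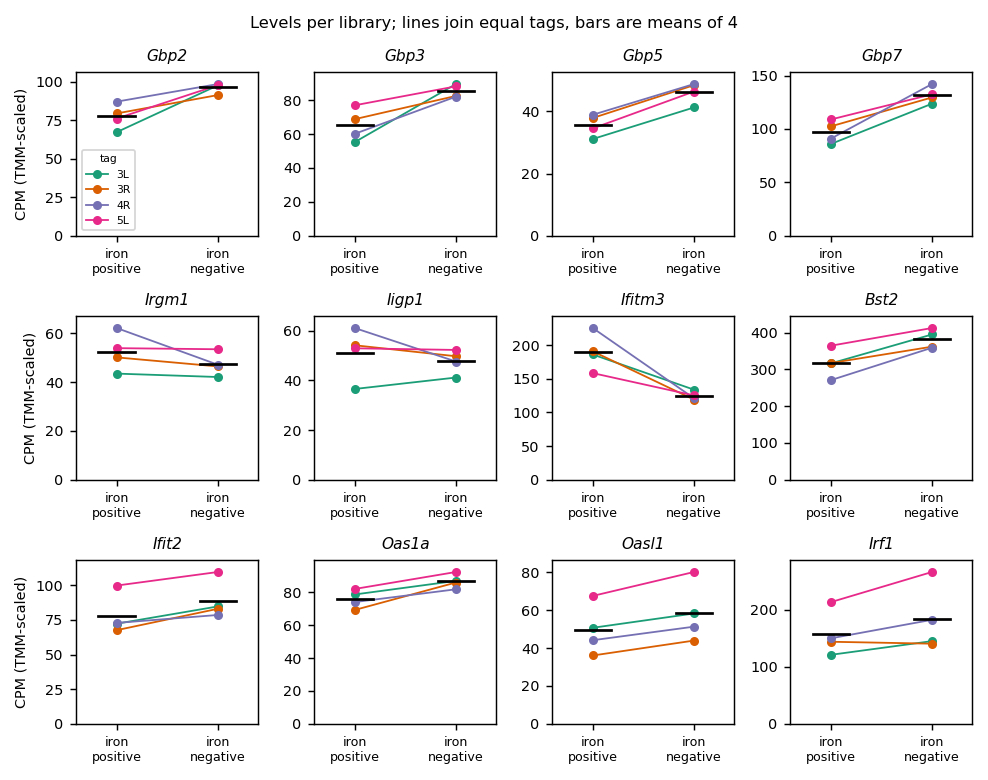
TMM-scaled CPM of 12 members in each library, iron positive at the left and iron negative at the right of each panel; lines join libraries of equal tag and black bars are means of 4. Gbp2, Gbp3, Gbp5 and Gbp7 sit lower in every iron positive library on this scale, and Ifitm3 sits higher. Against macrophage markers, where the median of all genes is 0.35, the 4 GBP genes lie between -0.09 and 0.05 log2 and Ifitm3 at 0.97. Tag 5L is the top line on both sides for Ifit2, Oasl1 and Irf1.

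IFIT proteins bind foreign RNA, and OAS enzymes make oligoadenylates that switch on the nuclease RNase L. None of these 10 genes was called by edgeR's quasi-likelihood test, where 2 had an unadjusted p under 0.05 and DESeq2 called 1 lower (Oas1g). Over all members DESeq2 called 7 lower and 1 higher, where it called 8.02% and 12.8% of all genes. The median log2 fold change of the IFIT/OAS-type genes was -0.13, and 9 of 10 were negative. Ifit2 stood at 72.3, 67.6, 72.8 and 99.8 CPM in the iron positive libraries, against 84.8, 83.05, 78.6 and 109.7 CPM in the iron negative libraries. Ifit3 had 45.01, 52.9, 54.4 and 68.5 CPM in the iron positive libraries, against 58.6, 52.98, 54.9 and 68.8 CPM in the iron negative libraries. Both genes were lower in the iron positive library of all 4 tags, with log2 fold changes of -0.19 ± 0.15 (adjusted p = 0.424) and -0.09 ± 0.13 (adjusted p = 0.684), and both fractions overlapped widely. For Ifit3 only 3L differed clearly (log2 ratio -0.381), while 3R (-0.003), 4R (-0.013) and 5L (-0.007) were nearly equal. Ifit3b had -0.14 ± 0.13 (adjusted p = 0.488), and Ifit1, the lone positive value of the 10, had 0.12 ± 0.17 (adjusted p = 0.669). Ifit3 and Ifit3b shared 61.8% and 55.2% of their 31-base words with another gene, mainly each other, so reads could be split between them.

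Oas1a reached 78.7, 69.3, 74.1 and 82.1 CPM in the iron positive libraries, against 86.97, 85.98, 81.8 and 92.4 CPM in the iron negative libraries. The iron positive libraries were the lower ones within every tag, and the log2 fold change of -0.19 ± 0.07 was not called (adjusted p = 0.0869). Oasl2 had 59.9, 71.1, 67.8 and 66.7 CPM in the iron positive libraries, against 65.5, 66.6, 68.3 and 76.6 CPM in the iron negative libraries, with -0.06 ± 0.07 (adjusted p = 0.606). Oas1g came closest to a call, at -0.28 ± 0.08 (adjusted p = 0.0577), and it shared 55.1% of its 31-base words with other genes, nearly all with Oas1a, which shared 68.8%. Oasl1 ranged over 50.7, 36.04, 44.1 and 67.5 CPM in the iron positive libraries, against 58.2, 43.9, 51.3 and 80.2 CPM in the iron negative libraries. Oasl1 differed more among tags than between fractions, and its log2 fold change was -0.24 ± 0.23 (adjusted p = 0.525). Oas2 had -0.08 ± 0.12 (adjusted p = 0.685) and Oas3 had -0.12 ± 0.10 (adjusted p = 0.487).

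When equal tags were paired, by adding the tag as a block to the edgeR fit, the members called lower grew to 12 and Ifitm3 remained the 1 called higher, where 9.39% and 12.8% of all genes were called. The 8 added members had block-adjusted p of 0.0182 (Oasl1), 0.0216 (Oas1g), 0.0436 (Oas1a), 0.0463 (Ifit2), 0.0396 (Usp18), 0.0262 (Bst2), 0.0273 (Zbp1) and 0.0423 (Parp14). Each of these was lower in the iron positive library of all 4 tags. In all, 23 of the 43 members were lower in all 4 tags, however small the difference, a larger share than the 23.9% of all tested genes. Only 2 of the 43 were higher in all 4 (Irgm1 and Ifitm3), a smaller share than the 22.0% of all tested genes. With scaling to macrophage markers 40 of the 43 log2 fold changes were positive. On that scale 6 members were called higher (44.4% of all genes were) and none lower (0.472% were). These 6 were Stat2, Ifitm2, Ifitm3, Irgm1, Cmpk2 and Trim30a. The members' median of 0.23 lay 0.12 below that of all genes.

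**Figure D2:**
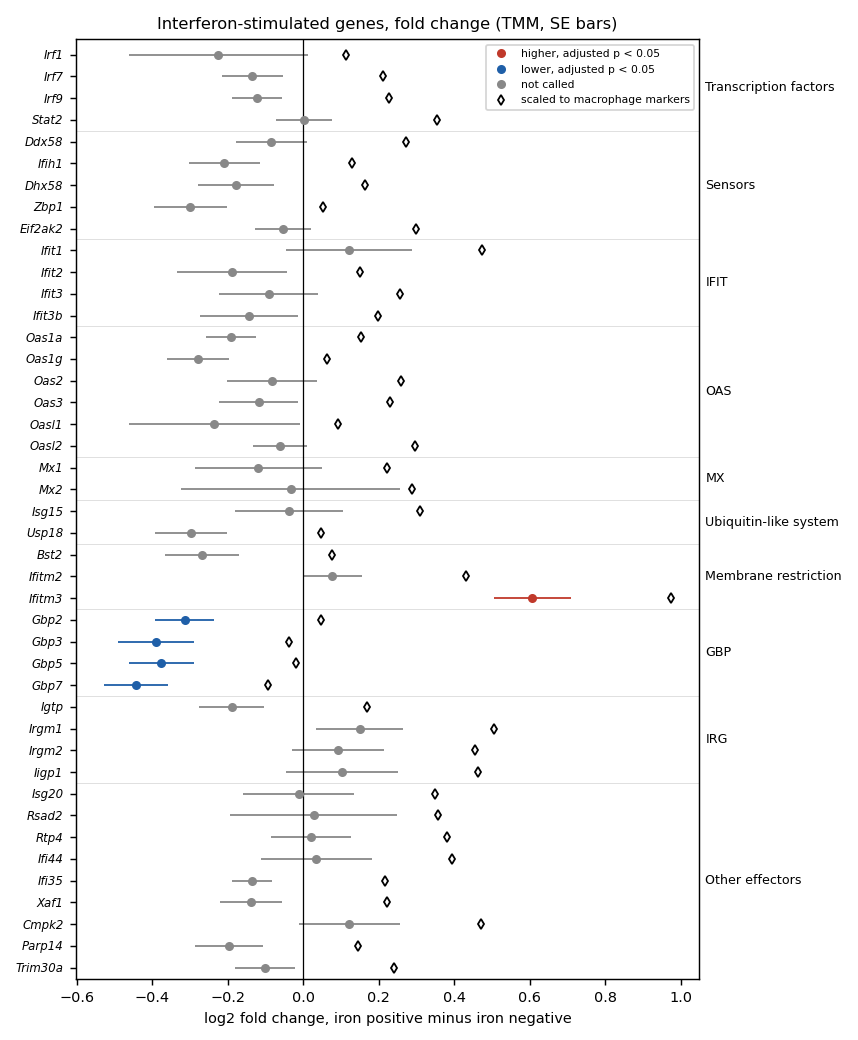
Log2 fold change, iron positive minus iron negative, of the 43 members by role, with SE bars from the TMM-scaled edgeR fit; open diamonds give the same value after scaling to 12 macrophage markers, where the median of all genes is 0.35. Gbp2, Gbp3, Gbp5 and Gbp7 are the called members to the left at -0.44 to -0.31 (their diamonds lie at -0.09 to 0.05). Ifitm3 is the called member to the right at 0.61, with its diamond at 0.97.

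GBP-type and IFIT/OAS-type genes were set against each other within each tag, as the 2 classes lean on different interferons. The median log2 ratio of iron positive over iron negative was -0.36 (3L), -0.13 (3R), -0.16 (4R) and -0.23 (5L) for the 8 GBP-type genes. For the 10 IFIT/OAS-type genes it was -0.14 (3L), -0.23 (3R), -0.13 (4R) and -0.15 (5L). Over the fitted fold changes the difference of the medians, GBP-type minus IFIT/OAS-type, was -0.12, and within tags it was -0.22 (3L), 0.10 (3R), -0.03 (4R) and -0.09 (5L), so its sign was not the same in every tag and its size was under the SD of 0.14 between tags. Leaving out 1 library moved it between -0.18 (without iron negative 5L) and -0.03 (without iron positive 5L).

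The GBP-type class was not uniform. The 4 GBP genes alone had medians of -0.53 (3L), -0.30 (3R), -0.39 (4R) and -0.32 (5L), all 4 genes being lower in each tag. The 4 IRG genes had -0.10 (3L), 0.12 (3R), 0.31 (4R) and -0.03 (5L). In each tag the GBP median lay below the IFIT/OAS-type median, and the IRG median lay above it. The IRG median was highest in 4R and 3R, the tags with the most endothelial and fibroblast marker counts. The part in it of the cells behind these markers was not tested.

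**Figure D3:**
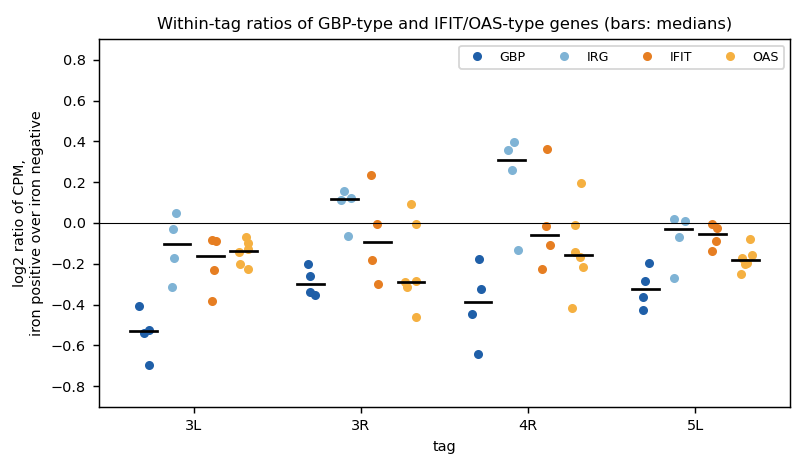
Log2 ratio of TMM-scaled CPM, iron positive over iron negative, within each tag; each point is 1 gene of the GBP, IRG, IFIT or OAS family and bars are medians over GBP, IRG, IFIT and OAS genes. GBP genes have medians of -0.53 to -0.30 in the 4 tags, while IRG medians range from -0.10 in 3L to 0.31 in 4R. Against macrophage markers GBP fold changes lie between -0.09 and 0.05 and IRG ones between 0.17 and 0.51. The median of all genes is 0.35 on that scale.

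Membrane restriction factors differed among themselves. Ifitm3 stood at 186, 191, 225 and 158 CPM in the iron positive libraries, against 134, 119, 121 and 125 CPM in the iron negative libraries. Ifitm3 averaged 190.0 ± 27.5 CPM in the iron positive fraction and 125 ± 6.53 CPM in the iron negative fraction (SD, n = 4 each), and its log2 fold change was 0.61 ± 0.10 (adjusted p = 0.0173). All iron positive libraries lay above all iron negative ones, as in 11.2% of all tested genes, with 4R the highest and 5L the lowest of them. Against macrophage markers Ifitm3 lay at 0.97 (edgeR adjusted p = 0.0091), where the median of all genes was 0.35. The endothelial marker sum was highest in iron positive 3R, and its part in the Ifitm3 value was not tested. With tags 3L and 5L only, an alternative chosen after seeing the data, the log2 fold change of Ifitm3 was 0.40. It was not called there (edgeR adjusted p = 0.177, against adjusted p of 2.41e-06 to 0.06299 under the other settings). With 2 tags left out, edgeR called 321 genes higher and 7 lower in all, against 1133 and 695 with all tags. A lost call with so few libraries cannot be ascribed to any cause. Without 1 iron negative library the adjusted p of Ifitm3 was 0.0525 to 0.06299, so that it too was not called.

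Ifitm2 stood at 257, 229, 288 and 249 CPM in the iron positive libraries, against 254, 231, 237 and 248 CPM in the iron negative libraries, and its log2 fold change of 0.08 ± 0.08 was not called (adjusted p = 0.545). Ifitm2 shared 55.5% of its 31-base words with other genes, chiefly the overlapping gene model Gm45717. Bst2 encodes tetherin, which holds budding virus at the cell surface. Bst2 stood at 316, 317, 271 and 364 CPM in the iron positive libraries, against 395, 362, 359 and 412 CPM in the iron negative libraries. Bst2 was lower in the iron positive library of each tag while the fractions overlapped, at a log2 fold change of -0.27 ± 0.10 (edgeR adjusted p = 0.0993, and 0.0262 with the tag as a block), while DESeq2 called it lower without the block (adjusted p = 0.0434). Markers of plasmacytoid dendritic cells, a list that includes Bst2 itself, summed to 652 to 762 CPM in iron positive and 812 to 858 CPM in iron negative libraries, nearly all of it from Bst2, Irf8 and Tcf4. The more specific markers of these cells were close to absent, Siglech at 0.481 ± 0.0309 CPM in iron positive and 0.509 ± 0.203 CPM in iron negative libraries and Ccr9 at 0.606 ± 0.308 CPM in iron positive and 0.698 ± 0.1499 CPM in iron negative libraries (SD, n = 4 each), and neither was called. Tcf4 was higher in the iron positive library of all 4 tags and not called (0.39 ± 0.19 on the log2 scale).

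Per transcript length, these membrane factors were the most abundant members. Ifitm2 averaged 817 ± 98.7 TPM in iron positive and 745 ± 27.5 TPM in iron negative libraries (SD, n = 4 each, TPM being the share of transcripts scaled to a fixed total). Bst2 averaged 757 ± 98.6 TPM in iron positive and 876 ± 57.5 TPM in iron negative libraries. Ifitm3 averaged 574 ± 93.6 TPM in iron positive and 362 ± 8.44 TPM in iron negative libraries. The levels of Ifitm2 and Bst2 did not separate beyond their spread in the iron positive fraction. Irf1, Isg15 and Irf7 came next in both fractions, and the lowest level in TPM was that of Oas3 in iron positive and Ifi44 in iron negative libraries, at 7.51 ± 1.16 and 7.402 ± 0.769 TPM.

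None of the 4 transcription factors was called by edgeR, none had an unadjusted p under 0.05, and DESeq2 called none. Irf1 is the factor that interferon gamma induces most directly. Irf1 had 121, 144, 149.9 and 213 CPM in the iron positive libraries, against 145, 140.5, 182 and 266 CPM in the iron negative libraries. Tag 5L was the highest in both fractions, and the log2 fold change of -0.23 ± 0.24 was not called (adjusted p = 0.563). Irf7 drives the type I interferon genes. Irf7 had 124, 115, 123 and 141 CPM in the iron positive libraries, against 136, 134, 129.6 and 153 CPM in the iron negative libraries, with a log2 fold change of -0.14 ± 0.08 (adjusted p = 0.288). Irf9 and Stat2, partners in the complex that binds the ISRE, had -0.12 ± 0.07 (adjusted p = 0.245) and 0.00 ± 0.07 (adjusted p = 0.994).

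The 5 sensors detect viral or misplaced nucleic acids. Ddx58 (RIG-I) stood at 42.5, 55.3, 52.5 and 53.4 CPM in the iron positive libraries, against 48.5, 52.9, 56.2 and 58.4 CPM in the iron negative libraries, with -0.09 ± 0.09 on the log2 scale (adjusted p = 0.579). Eif2ak2 (PKR, a kinase that stops translation on double-stranded RNA) had 47.5, 51.6, 55.7 and 53.6 CPM in the iron positive libraries, against 48.2, 53.8, 57.6 and 56.7 CPM in the iron negative libraries, with -0.05 ± 0.07 (adjusted p = 0.669). Neither gene separated the fractions. Zbp1 reached 35.7, 36.5, 41.9 and 44.4 CPM in the iron positive libraries, against 48.9, 46.1, 44.5 and 55.7 CPM in the iron negative libraries. For Zbp1, a sensor of Z-form nucleic acids, all iron positive libraries lay below all iron negative ones, as in 10.3% of all tested genes. Its log2 fold change of -0.30 ± 0.10 was not called by edgeR without the block (adjusted p = 0.0735, and 0.0273 with it). DESeq2 called Zbp1 lower without the block (adjusted p = 0.0439). Ifih1 (MDA5) had -0.21 ± 0.09 (adjusted p = 0.169) and Dhx58 (LGP2) had -0.18 ± 0.10 (adjusted p = 0.268).

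MX proteins are dynamin-like GTPases that trap viral components, and the annotation lists Mx2 as a polymorphic pseudogene. Mx1 stood at 38.9, 44.6, 48.7 and 61.02 CPM in the iron positive libraries, against 42.2, 46.9, 54.9 and 65.8 CPM in the iron negative libraries. Mx2 stood at 11.7, 12.2, 12.6 and 24.2 CPM in the iron positive libraries, against 12.02, 11.8, 16.5 and 21.8 CPM in the iron negative libraries. Both genes were highest in tag 5L on either side of the column, and their log2 fold changes of -0.12 ± 0.17 (adjusted p = 0.677) and -0.03 ± 0.29 (adjusted p = 0.952) were not called. Isg15, the ubiquitin-like modifier, had 47.2, 44.1, 43.5 and 56.5 CPM in the iron positive libraries, against 55.9, 39.3, 43.2 and 58.04 CPM in the iron negative libraries, with -0.04 ± 0.14 (adjusted p = 0.884). Usp18, which removes ISG15 from its targets and dampens the type I receptor, had 16.1, 17.3, 18.2 and 20.96 CPM in the iron positive libraries, against 20.7, 21.8, 24.3 and 22.4 CPM in the iron negative libraries. Usp18 was lower in the iron positive library of all 4 tags, at -0.30 ± 0.10 (adjusted p = 0.0729, and 0.0396 with the tag as a block).

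Among the 9 other effectors edgeR called none, 1 had an unadjusted p under 0.05 (Ifi35) and DESeq2 called none. Parp14 transfers single ADP-ribose units to proteins. Parp14 stood at 108, 109.8, 112 and 137 CPM in the iron positive libraries, against 123, 131, 137 and 145 CPM in the iron negative libraries. It was lower in the iron positive library of each tag, at -0.20 ± 0.09 (adjusted p = 0.177, and 0.0423 with the tag as a block). Trim30a had 93.8, 75.3, 91.9 and 97.1 CPM in the iron positive libraries, against 95.5, 93.7, 96 and 99.2 CPM in the iron negative libraries, with -0.10 ± 0.08 (adjusted p = 0.419). Ifi35 had the smallest SE of the members. Its level was 32.98 ± 1.64 CPM in iron positive and 36.2 ± 0.523 CPM in iron negative libraries (SD, n = 4 each). These did not overlap, the iron positive libraries being lower, as in 10.3% of all tested genes. For Ifi35 the log2 fold change was -0.14 ± 0.05 (adjusted p = 0.122). Rsad2 (viperin), an enzyme that makes a nucleotide which ends viral RNA chains, and its genomic neighbour Cmpk2 had 0.03 ± 0.22 and 0.12 ± 0.13. Isg20 (-0.01 ± 0.15), Rtp4 (0.02 ± 0.11), Ifi44 (0.04 ± 0.15) and Xaf1 (-0.14 ± 0.08) complete the list, with adjusted p between 0.287 (Xaf1) and 0.967 (Isg20) for these 6 genes. Irf7 with Phrf1, and Rtp4 with Masp1, overlap on opposite strands, and the counts use no strand.

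Many members varied with the tag. Tag 5L held the highest value in both fractions for 22 of the 43 members (51.2%), against 7.63% of all tested genes. Among the IFIT/OAS-type genes this was so for 8 of 10, and among the GBP-type genes for 0 of 8, where 4R was the highest in both fractions for 3. The excess of 5L over the mean of the other tags, in log2 CPM over both fractions, was 0.85 for Mx2, 0.71 for Irf1, 0.65 for Oasl1, 0.47 for Mx1, 0.46 for Ifit2 and 0.45 for Rsad2. Rsad2 had 104, 59.2, 76.3 and 113 CPM in the iron positive libraries, against 102, 70.2, 70.3 and 102 CPM in the iron negative libraries, so both 3L and 5L were high for this gene on either side. For 32 of the 43 members (74.4%) the range between tags exceeded the difference between fractions, as it did for 70.6% of all tested genes. Whether 5L is another animal, tumor or handling cannot be told from the labels.

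**Figure D4:**
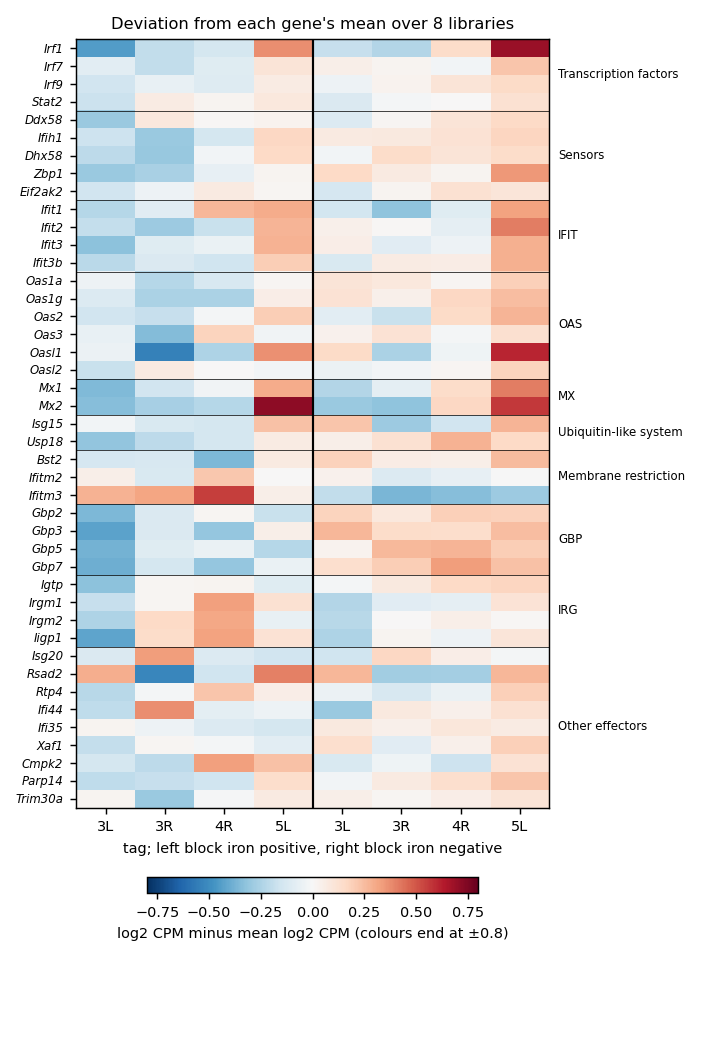
Deviation of each member's log2 CPM from its mean over the 8 libraries, iron positive libraries in the left block and iron negative in the right, by tag. Tag 5L is the reddest column of both blocks for Mx2, Irf1, Oasl1, Mx1 and Ifit2. On the TMM scale the 4 GBP genes are blue or pale at the left and red at the right. Against macrophage markers these GBP genes lie between -0.09 and 0.05 log2, where the median of all genes is 0.35.

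Pathway genes that are not members were read from a list of 52 ligands, receptors, signalling proteins, inhibitors, sensors and further targets, of which 42 were tested. None was higher by edgeR's test, 0 of those with a positive fold change had an unadjusted p under 0.05, and DESeq2 called none higher. In the iron positive fraction 17 of the 42 were lower, where 5.21% of all tested genes were, and the median log2 fold change over the 42 was -0.29. Against macrophage markers, 2 of these genes were called lower (Tlr9 and Ifnlr1), where 0.472% of all tested genes were, and 7 higher, where 44.4% were, with a median of 0.06 that lay 0.29 below that of all genes. Without 1 iron negative library 0 or 1 of these genes was called, with 21 to 25 lower at an unadjusted p under 0.05, and without iron positive 4R 7 were called.

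Interferon transcripts themselves were close to absent in the counts. Ifna1, Ifna4, Ifna5, Ifne and Ifnl3 had 0 counts in all 8 libraries, and a count of 0 allows up to 3 counts, or 0.159 CPM in the shallowest library. Ifna2, Ifnk and Ifnl2 reached at most 2 counts in any library. Ifng was at 0 in the 4 iron positive libraries, against 0, 0.15, 0.22 and 0.09 CPM in the iron negative libraries, at most 5 counts. Ifnb1 had 0.6, 0.5, 0.61 and 0.57 CPM in the iron positive libraries, against 0.66, 0.73, 0.45 and 0.96 CPM in the iron negative libraries, with a log2 fold change of -0.29 ± 0.29 that was not called (adjusted p = 0.543). These levels are too low to compare the fractions for any ligand other than Ifnb1.

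Receptor chains were lower in the iron positive fraction for 5 of 6 genes, where 5.21% of all tested genes were lower. Against macrophage markers, however, Ifnar1 lay at -0.05, Ifnar2 at 0.04, Ifngr1 at 0.03 and Ifngr2 at 0.10. Ifnar1 stood at 239, 229, 186 and 255 CPM in the iron positive libraries, against 315, 306, 292 and 282 CPM in the iron negative libraries, with -0.39 ± 0.10 on the log2 scale (adjusted p = 0.0349). Ifnar2 stood at 162, 150.2, 148 and 166 CPM in the iron positive libraries, against 195, 195, 187 and 196 CPM in the iron negative libraries, with -0.30 ± 0.06 (adjusted p = 0.0183). Both chains of the type I receptor separated the fractions without overlap, the iron positive libraries being lower, a pattern of 10.3% of all tested genes. Ifngr1 had 236, 234, 221 and 249.6 CPM in the iron positive libraries, against 298, 306, 300.3 and 273 CPM in the iron negative libraries, with -0.32 ± 0.06 (adjusted p = 0.0185). Ifngr2 had 142, 134, 120.0 and 137 CPM in the iron positive libraries, against 164, 161, 161 and 149 CPM in the iron negative libraries, with -0.25 ± 0.07 (adjusted p = 0.0406). The chains of the interferon gamma receptor thus also lay lower in each iron positive library. Ifnlr1, the interferon lambda receptor chain, had 1.05, 0.81, 0.39 and 1.01 CPM in the iron positive libraries, against 1.81, 1.8, 3.13 and 1.78 CPM in the iron negative libraries. Its 9 to 70 counts gave -1.39 ± 0.35 (adjusted p = 0.0362), and with the tag as a block the call was lost (adjusted p = 0.0528). Il10rb, its partner chain, had 228, 175, 205 and 194 CPM in the iron positive libraries, against 208, 206, 198 and 192 CPM in the iron negative libraries, with 0.00 ± 0.08 (adjusted p = 0.988).

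Among the kinases and STAT genes, Jak1 (0.08), Jak2 (0.09), Stat3 (0.09) and Tyk2 (-0.17) were not called. Irf8, a factor of macrophage and dendritic cell identity, had 283, 254, 258 and 298 CPM in the iron positive libraries, against 351, 363, 360.2 and 350.3 CPM in the iron negative libraries, with -0.38 ± 0.07 (adjusted p = 0.0176). Among the inhibitors 1 of 5 was called lower, where 5.21% of all tested genes were. This was the phosphatase gene Ptpn6 (SHP-1), with 312 ± 26.7 CPM in iron positive and 400.4 ± 14.1 CPM in iron negative libraries (SD, n = 4 each) and -0.36 ± 0.07 (adjusted p = 0.0209). Against macrophage markers Irf8 lay at -0.04 and Ptpn6 at -0.02, neither called. Socs1 and Socs3, which interferon and other cytokines induce, had 0.04 and -0.21 and were not called.

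Upstream of interferon, 3 of 10 sensing genes were lower, where 5.21% of all tested genes were. Tlr9, the endosomal receptor for bacterial-type DNA, had 45.01, 39.5, 31.4 and 48.95 CPM in the iron positive libraries, against 75.7, 74.2, 74.3 and 61.7 CPM in the iron negative libraries, with -0.79 ± 0.13 (adjusted p = 0.0173), and it was called lower against macrophage markers as well (-0.46, adjusted p = 0.0155). Tmem173 (STING) had 88.5, 108, 94.3 and 102 CPM in the iron positive libraries, against 134, 128, 138 and 127 CPM in the iron negative libraries, with -0.42 ± 0.07 (adjusted p = 0.0173). Mavs, the adaptor of the RNA sensors, had 43.5 ± 1.94 CPM in iron positive and 50.2 ± 2.29 CPM in iron negative libraries (SD, n = 4 each) and -0.21 ± 0.06 (adjusted p = 0.0415). Against macrophage markers Tmem173 lay at -0.07 and Mavs at 0.14, neither called. All 3 genes separated the fractions without overlap, the iron positive libraries being lower, as did 10.3% of all tested genes.

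Of 11 tested further targets, Socs1 among them, 7 were lower, where 5.21% of all tested genes were. Cxcl9, a chemokine that interferon gamma induces, had 81.05, 95.4, 99.6 and 89.2 CPM in the iron positive libraries, against 139, 136, 137 and 114 CPM in the iron negative libraries, with -0.53 ± 0.09 (adjusted p = 0.0173). Cxcl10 had 148, 114, 102 and 202 CPM in the iron positive libraries, against 275, 159, 212 and 292 CPM in the iron negative libraries, with -0.73 ± 0.25, which edgeR did not call without the block (adjusted p = 0.08897, and 0.00525 with it) and DESeq2 called lower (adjusted p = 0.0195). Ciita, the master activator of MHC class II genes, had 28.5, 41.4, 20.4 and 30.6 CPM in the iron positive libraries, against 57.7, 72.1, 66.6 and 40.2 CPM in the iron negative libraries, with -0.97 ± 0.23 (adjusted p = 0.0318). For Ciita the fractions overlapped through the low iron negative 5L library. Ccl5, a T cell chemokine, had 8.71 ± 1.28 CPM in iron positive and 13.1 ± 1.32 CPM in iron negative libraries, with -0.58 ± 0.13 (adjusted p = 0.02602). The T and NK cell marker sum was lower in the iron positive libraries as well, but most of it was Cd4, the single called marker of that list, at 18.4 ± 2.66 CPM in iron positive and 31.9 ± 5.05 CPM in iron negative libraries. The T cell marker Cd3d stood at 1.04 ± 0.435 CPM in iron positive and 1.24 ± 0.5505 CPM in iron negative libraries (SD, n = 4 each) and was not called, and the part of T cells in the Ccl5 value was not tested. The class I presentation genes Tap1 (-0.33 ± 0.09, adjusted p = 0.0421), Psmb8 (-0.30 ± 0.07, 0.0268), Psmb9 (-0.39 ± 0.08, 0.02197) and B2m (-0.37 ± 0.09, 0.0363) were lower by similar amounts, and against macrophage markers they lay between -0.03 and 0.05. On that scale Cxcl9 lay at -0.165, Ccl5 at -0.245 and Ciita at -0.62, none called. With the tag as a block 23 pathway genes were lower, where 9.39% of all tested genes were. Of these 23, 7 were not called by edgeR without the block (Cxcl10, Cxcl11, Irf5, Irf2bp2, Mb21d1, Myd88 and Ticam1), and DESeq2 called Cxcl10, Irf5 and Mb21d1 among the 7 without it.

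**Figure D5:**
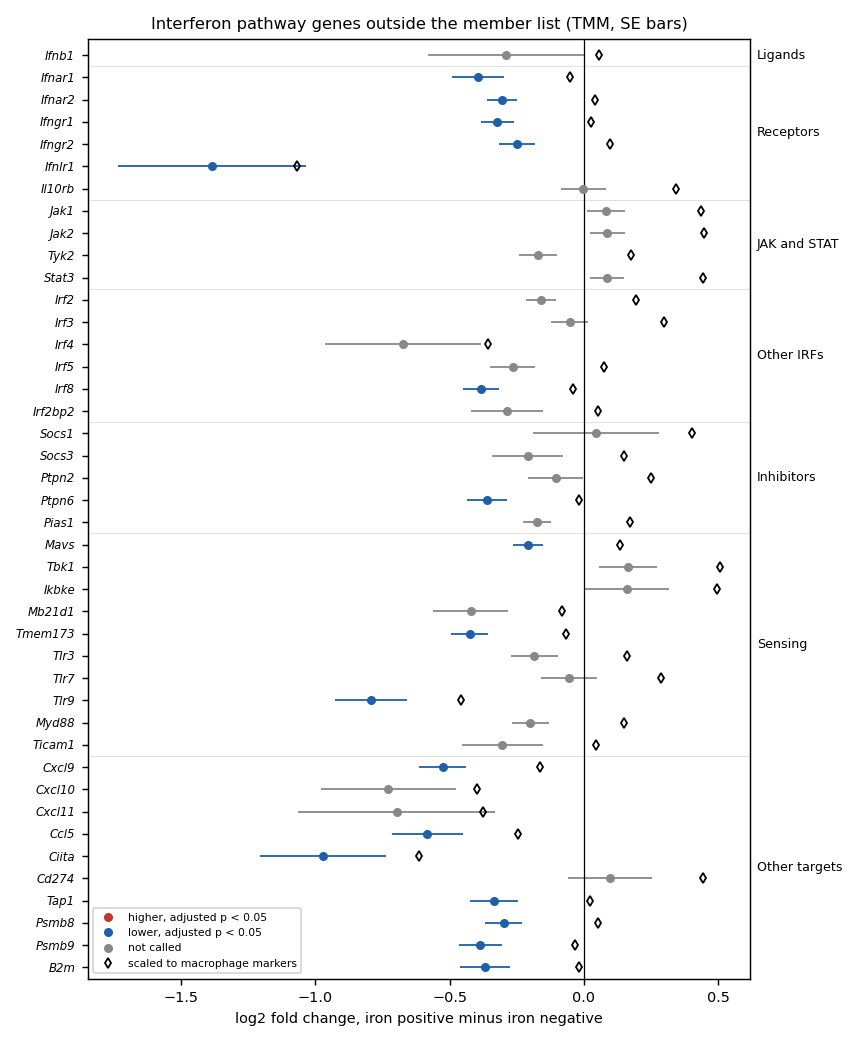
Log2 fold change, iron positive minus iron negative, of the 42 tested interferon pathway genes outside the member list, with SE bars; open diamonds give the value after scaling to macrophage markers. The 17 called genes lie left of 0, from Ifnlr1 at -1.39 to Mavs at -0.21, and the diamonds of most lie near 0, where the median of all genes is 0.35.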

How the data were processed

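Bulk RNA-seq tables of 8 libraries (4 iron positive, 4 iron negative) were used, grouped by the fraction and tag in their titles. Per the submitters' processing notes, the authors ran kallisto 0.46.2 with build mm10. Per the file headers, each deposited table holds estimated counts per transcript, which are not normalized and need not be whole, and TPM values, which are scaled by effective length and library total. The length columns are other values that were used for length offsets only.

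Transcript identifiers without version were matched to GENCODE mouse release 21 on GRCm38. Of 119414 transcripts 116728 matched, and the 2686 others, with 0.888% to 0.961% of the counts, were not used. Estimated counts were summed per gene and rounded, and TPM was summed per gene. Totals were 19.04 to 24.31 M per library, and the precision is given as SD or SE over 4 libraries. No strand was used, and kallisto divides reads that fit several transcripts, so the share of 31-base words a member has in common with other genes was computed from the transcripts in place of the protein identity that had been planned.

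Genes were filtered with filterByExpr and scaled by TMM, and the fraction was tested with edgeR 4.0.16 (R 4.3.3) by the quasi-likelihood F-test with Benjamini-Hochberg adjustment and a threshold of 0.05. SEs are the coefficient over the square root of F, an approximation. Alternatives were the tag as a block, DESeq2 1.42.0, RLE factors, library totals, scaling to 12 macrophage markers, other filters, length offsets, limma 3.58.1 on log2(TPM + 1) and log2(TPM + 0.1), and each library left out. Equal tags in the titles pair the libraries. Over all tested genes their deviations from the fraction means correlated at 0.47 (3L), 0.46 (3R), 0.27 (4R) and 0.28 (5L). Each lay over the limit of 0.1, against at most 0.23 for unequal tags. Over the 43 members alone the values were 0.70 (3L), 0.56 (3R), 0.12 (4R) and 0.78 (5L). Unequal tags reached 0.52 there (iron positive 3R with iron negative 4R), so over the members 4R was not set apart from unequal tags. The fit without the block was also run on simulated counts with known changes and no tag effect. Those changes were larger than that of any called member, so the run says nothing of calls as small as these. Libraries of a fraction differed by more than counting noise.

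The members, the gene lists and the tests were chosen with earlier results of these data known. Named per library were, in each role group, the called members and the 2 with the highest mean CPM, and of the pathway list the called genes, the ligands and the receptors. Other genes were named after their values were seen, and 1 gene of the pathway list is not reported here. Promoter sequences came from RefSeq promoters on GRCm38.p6.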

Additional observations from a re-analysis of the deposited data

Results flagged for a closer look

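For each gene and fraction, the gap of the highest or lowest library to its neighbour was divided by the range of the 4 libraries, and values above Dixon's 95% limit for 4 libraries are given here. Of 124 such groups (43 members and 19 pathway genes in 2 fractions) 11 passed, and chance alone passes about 1 in 20 groups. No explanation was tested for any of them.

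In the iron positive fraction, 3 of the 4 values so found belonged to tag 5L. Ifit2 was 99.85 CPM in the iron positive 5L library, above 67.60, 72.27 and 72.85 CPM in the other libraries of that fraction. Mx2 was 24.21 CPM in the iron positive 5L library, above 11.66, 12.25 and 12.60 CPM in the other libraries of that fraction. Parp14 was 137.36 CPM in the iron positive 5L library, above 108.11, 109.84 and 111.83 CPM in the other libraries of that fraction. Isg20 was 8.67 CPM in the iron positive 3R library, above 6.16, 6.33 and 6.37 CPM in the other libraries of that fraction.

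In the iron negative fraction, 1 member and 6 pathway genes passed. Gbp2 was 91.24 CPM in the iron negative 3R library, below 97.53, 97.65 and 98.38 CPM in the other libraries of that fraction. Ifnar2 was 186.63 CPM in the iron negative 4R library, below 194.53, 194.87 and 196.13 CPM in the other libraries of that fraction. Ifnlr1 was 3.13 CPM in the iron negative 4R library, above 1.78, 1.80 and 1.81 CPM in the other libraries of that fraction. Ccl5 was 11.10 CPM in the iron negative 4R library, below 13.50, 13.70 and 13.96 CPM in the other libraries of that fraction. Mavs was 46.84 CPM in the iron negative 3L library, below 50.84, 51.61 and 51.63 CPM in the other libraries of that fraction. Tlr9 was 61.74 CPM in the iron negative 5L library, below 74.23, 74.29 and 75.66 CPM in the other libraries of that fraction. Cxcl9 was 113.74 CPM in the iron negative 5L library, below 136.28, 136.57 and 139.38 CPM in the other libraries of that fraction. Gbp2 and the receptor and chemokine genes among these were separated between the fractions at these values, iron positive being lower, as in 10.3% of all tested genes.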

How the results depend on the processing

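Counts of called genes moved with the setting. Of the 43 members, 12 were lower with the tag as a block (the paired fit) and 7 in DESeq2, against 4 without the block. It was 1 with library totals (362 of all 13343 genes were lower), 0 with scaling to macrophage markers (63 genes), 0 with limma on log2(TPM + 1) (205 genes), 1 with limma on log2(TPM + 0.1) (270 genes), and 0 with tags 3L and 5L only (7 of 13422 genes), an alternative chosen after seeing the data in which 7 were lower and 1 was higher at an unadjusted p under 0.05. Leaving out 1 library gave 0 to 10. Members called higher numbered 6 with scaling to macrophage markers, 0 with tags 3L and 5L only, and 0 to 1 with 1 library left out.

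IFIT/OAS-type genes called lower numbered 4 with the block, 1 in DESeq2 and 0 to 2 with 1 library left out. GBP-type genes called lower numbered 1 with library totals, 0 with scaling to macrophage markers, 0 with limma on log2(TPM + 1), 1 with limma on log2(TPM + 0.1), 0 with tags 3L and 5L only, and 0 to 4 with 1 library left out, and 1 was higher with scaling to macrophage markers. Pathway genes called lower numbered 2 with scaling to macrophage markers, 6 with limma on log2(TPM + 1), 7 with limma on log2(TPM + 0.1), 0 with tags 3L and 5L only and 0 to 22 with 1 library left out, and 7 were higher with scaling to macrophage markers. The difference of the GBP-type and IFIT/OAS-type medians stayed negative in all settings run, at -0.18 to -0.03 with 1 library left out. Beyond the calls named in the report, the paired fit changed none among the members. The causes of these moves were not tested, other than that each alternative with 1 library or 2 tags left out has fewer samples.

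Some log2 fold changes of single genes changed sign. Of these, Gbp2, Ifnar2, Ifngr1, Ifngr2, Mavs, Tap1 and Psmb8 were called lower on the TMM scale without the block and not called against macrophage markers. Trim30a and Il10rb were called higher against macrophage markers alone. Ifit2, Oas1a, Oas1g, Oasl1, Usp18, Bst2, Zbp1 and Parp14, called lower with the tag as a block, were positive and not called against macrophage markers. No other sign change involved a value called in those fits or in the setting that changed the sign. Scaling to macrophage markers, which lifts the median of all genes to 0.35, gave 0.31 (Isg15), 0.35 (Isg20), 0.15 (Ifit2), 0.26 (Ifit3), 0.20 (Ifit3b), 0.22 (Mx1), 0.29 (Mx2), 0.15 (Oas1a), 0.063 (Oas1g), 0.26 (Oas2), 0.23 (Oas3), 0.093 (Oasl1), 0.30 (Oasl2), 0.11 (Irf1), 0.21 (Irf7), 0.23 (Irf9), 0.048 (Usp18), 0.27 (Ddx58), 0.13 (Ifih1), 0.16 (Dhx58), 0.22 (Ifi35), 0.047 (Gbp2), 0.17 (Igtp), 0.051 (Zbp1), 0.077 (Bst2), 0.22 (Xaf1), 0.14 (Parp14), 0.30 (Eif2ak2), 0.24 (Trim30a), 0.056 (Ifnb1), 0.042 (Ifnar2), 0.025 (Ifngr1), 0.098 (Ifngr2), 0.34 (Il10rb), 0.14 (Mavs), 0.021 (Tap1) and 0.051 (Psmb8). With library totals the values were 0.020 (Isg15), 0.043 (Isg20), 0.020 (Mx2), 0.001 (Eif2ak2) and 0.048 (Il10rb). Length offsets gave 0.14 (Mx2), -0.041 (Rsad2), 0.11 (Ddx58), -0.036 (Ifi44), 0.001 (Eif2ak2) and 0.039 (Trim30a). With limma on log2(TPM + 1) they were 0.026 (Isg15), 0.14 (Mx2), 0.002 (Oas2), -0.012 (Rsad2), 0.15 (Ddx58), 0.010 (Xaf1), 0.050 (Eif2ak2), 0.077 (Trim30a) and 0.011 (Il10rb), and on log2(TPM + 0.1) they were 0.026 (Isg15), 0.15 (Mx2), 0.002 (Oas2), -0.013 (Rsad2), 0.16 (Ddx58), 0.010 (Xaf1), 0.052 (Eif2ak2), 0.079 (Trim30a) and 0.011 (Il10rb). DESeq2 gave 0.003 (Il10rb), RLE size factors 0.003 (Il10rb), the stricter filter 0.001 (Isg20) and 0.010 (Il10rb), no filter -0.015 (Stat2) and the block -0.0 (Stat2). With 1 library left out, the values that changed sign ranged over -0.13 to 0.047 (Isg15), -0.14 to 0.042 (Isg20), -0.25 to 0.003 (Mx1), -0.35 to 0.17 (Mx2), -0.41 to 0.005 (Irf1), -0.035 to 0.050 (Stat2), -0.12 to 0.18 (Rsad2), -0.054 to 0.088 (Rtp4), -0.099 to 0.097 (Ifi44), -0.005 to 0.17 (Irgm2) and -0.075 to 0.058 (Il10rb).

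With 4 libraries per fraction, log2 fold changes of members that were not called had SEs of 0.05 to 0.29, which sets how precisely they are known.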

Other observations

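Relatives of the members within the same gene families were read after the values of the members were seen, so they were chosen with the results known. Of 6 tested guanylate-binding protein genes outside the member list, 1 fell in the iron positive fraction by edgeR's quasi-likelihood test, where 5.21% of all tested genes did. Gbp8 stood at 37.1, 44.6, 35.3 and 47.7 CPM in the iron positive libraries, against 60.9, 72.3, 72.4 and 61.6 CPM in the iron negative libraries, with a log2 fold change of -0.70 ± 0.11 (adjusted p = 0.0173). The fractions did not overlap, iron positive being lower, as in 10.3% of all tested genes. Against macrophage markers Gbp8 lay at -0.35 and was not called (adjusted p = 0.0604). The other tested relatives were not called. Gbp4 had -0.01 ± 0.15, Gbp6 -0.21 ± 0.12, Gbp9 -0.04 ± 0.11, Gbp2b -0.45 ± 0.28 and Gbp10 0.18 ± 0.47 on the log2 scale. The GBP genes thus spread from -0.70 (Gbp8) to 0.18 (Gbp10), but Gbp10 had only 5 to 22 counts per library. Gbp4 and Gbp9, with far more counts, lay at -0.01 and -0.04. Not all GBP genes moved as Gbp2, Gbp3, Gbp5 and Gbp7 did.

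Among 4 further tested IRG genes edgeR called none, 1 had an unadjusted p under 0.05, and DESeq2 called that gene, Tgtp1, higher. Tgtp1, a T cell-specific GTPase by name, had 1.4, 7.51, 8.37 and 3.35 CPM in the iron positive libraries, against 1.28, 1.27, 1.03 and 2.61 CPM in the iron negative libraries. It was higher in the iron positive library of all 4 tags, most in 3R and 4R, with 1.73 ± 0.56 (adjusted p = 0.0735). The endothelial marker sum was also highest in those 2 iron positive libraries, and its part was not tested. Ifi47 had -0.14 ± 0.10, Irgq -0.08 ± 0.12 and Tgtp2 -0.04 ± 0.14. Tgtp2 averaged 21.4 CPM in iron positive and 22.0 CPM in iron negative libraries, against 5.16 and 1.55 CPM for Tgtp1. The share of sequence in common with other genes was computed for the members only. Whether reads were split between Tgtp1 and Tgtp2 was thus not tested, and the Tgtp1 counts are less certain for that reason. Of the further IFIT and OAS genes, Ifit1bl1 had 0.01 ± 0.21, Oas1b 0.38 ± 0.16 and Oas1c 0.27 ± 0.21, none called by edgeR or DESeq2, and Oas1b had an unadjusted p under 0.05.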
